A study of Mus musculus with 18 samples.

Results

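Ventricular muscle of untreated ob/ob mice was compared with that of wild type mice on 4 arrays each, taken by their titles from a series of 18 arrays. The ob/ob mice had the C57Bl/6J background, ate ad libitum to an age of 6 months, and were then left on free feeding for 1 more month. The wild type mice were C57Bl/6J mice that the sample labels give as 6 months old and the series design as 6 to 8 months. With the extra month of the ob/ob mice, the wild type mice may have been younger or older than the ob/ob mice when killed. The other 10 arrays came from ob/ob mice that were calorie restricted (n = 5) or given leptin (n = 5), and they entered the fit only for the estimate of the spread. All mice were killed in 1 early-morning window, and total RNA was prepared from minced heart. The labels give no animal identifiers, so the p-values cover only the variation from sample to sample.

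Leptin is a hormone of fat cells that lowers food intake through the brain and signals through JAK and STAT proteins. The ob/ob mouse makes no functional leptin from birth and becomes obese, so loss of the hormone and lifelong obesity come together in it. Heart muscle burns mostly fatty acids, under the control of the coactivator PGC-1 alpha and the fatty acid receptor PPAR-alpha, and stores a surplus as triacylglycerol. The Lep signal was near background in all 8 hearts and gave no check of the genotype.

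All 13 markers of ventricular cardiomyocytes had a mean signal over 64, and their summed signal was 82512 to 96329 in ob/ob hearts and 73022 to 80274 in wild type hearts. Markers of blood vessel endothelium summed to 9654 to 9926 in ob/ob hearts and 9139 to 9998 in wild type hearts. The macrophage sum was 5619 to 7228 in ob/ob hearts and 6357 to 10939 in wild type hearts, with the highest value in wild type replicate 4. Fibroblast markers summed to 11917 to 12595 in ob/ob hearts and 10695 to 17180 in wild type hearts, again highest in wild type replicate 4. The atrial sum was 3649, 2101, 2295 and 2367 in ob/ob hearts, against 3546, 4530, 4534 and 2953 in wild type hearts. Myl7, a myosin light chain of the atria, was at 438, 2.89, 4.73 and 2.52 in ob/ob hearts and 92.7, 674, 539 and 115 in wild type hearts. These groups overlapped only through ob/ob replicate 1. In a bulk sample, fewer cells of a type and less RNA per cell cannot be told apart.

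**Figure D1:**
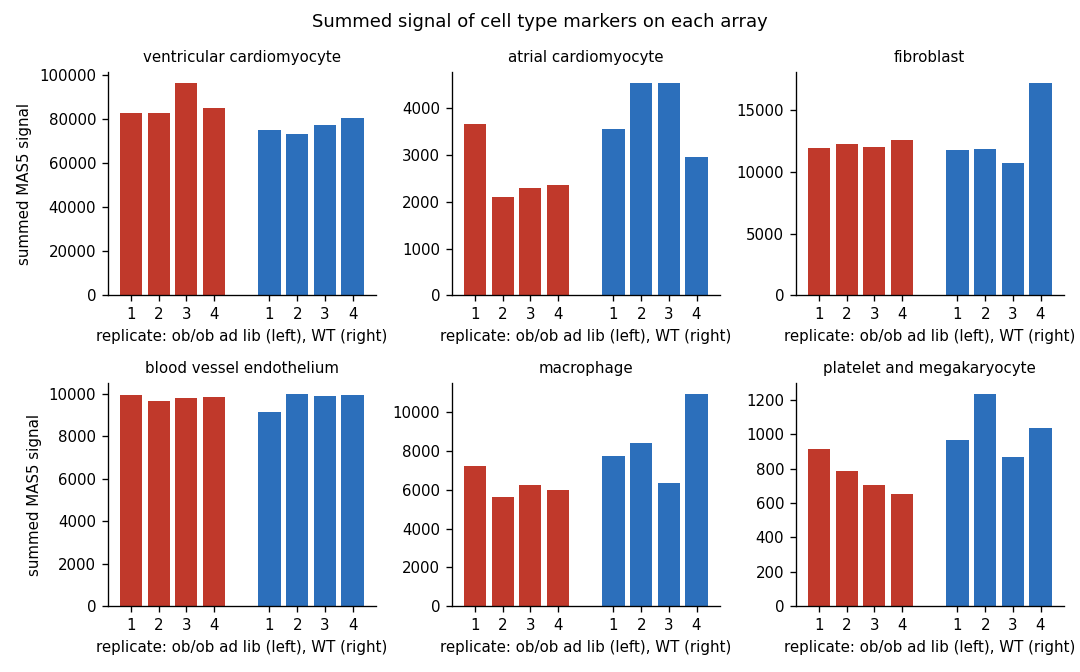
Summed MAS5 signal of the markers of 6 cell types on each array (bars, linear axis from 0), ob/ob ad libitum replicates in red on the left and wild type replicates in blue on the right. The ventricular sums do not overlap between the groups, while the macrophage and fibroblast sums are highest in wild type replicate 4 and the atrial sum is uneven within both groups.

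The 8 arrays had equal trimmed means of 100.001 and medians of 23.1 to 30.1, and 3' to 5' signal ratios of 0.798 to 0.834 for Gapdh. Log2 signals of any pair of arrays correlated at 0.956 to 0.968 across probe sets. The first principal component (27.8% of the variance) set replicate 4 of both groups apart from the other 6 arrays. The second (20.5%) separated the groups, with scores of 2.51 to 16.47 in ob/ob hearts and -12.83 to -5.78 in wild type hearts.

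Most genes differed little between the groups. Of 10916 genes tested, 41 (0.376%) were called, which means a Benjamini-Hochberg adjusted p under 0.05 in limma's moderated test. Of these, 17 (0.156% of the genes tested) were higher and 24 (0.22%) were lower in ob/ob hearts. The log2 changes, on the scale log2(signal + 5.13), had a median of 0.003, and the 5th and 95th percentiles were -0.34 and 0.32. Only 31 genes differed by more than 2-fold, 13 higher and 18 lower in ob/ob hearts, and 9 of them were called. An unadjusted p under 0.05 was reached by 1258 genes (11.5%), 627 higher (5.74%) and 631 lower (5.78%). In 869 genes (7.96%) the 4 ob/ob arrays did not overlap the 4 wild type arrays, 455 with ob/ob higher (4.17%) and 414 with ob/ob lower (3.79%). The number called depended on single arrays. Leaving out ob/ob replicate 1, 2, 3 or 4 gave 50, 18, 19 and 12 calls, leaving out wild type replicate 1, 2, 3 or 4 gave 19, 6, 39 and 13, and leaving out replicate 4 of both groups gave 8.

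**Figure D2:**
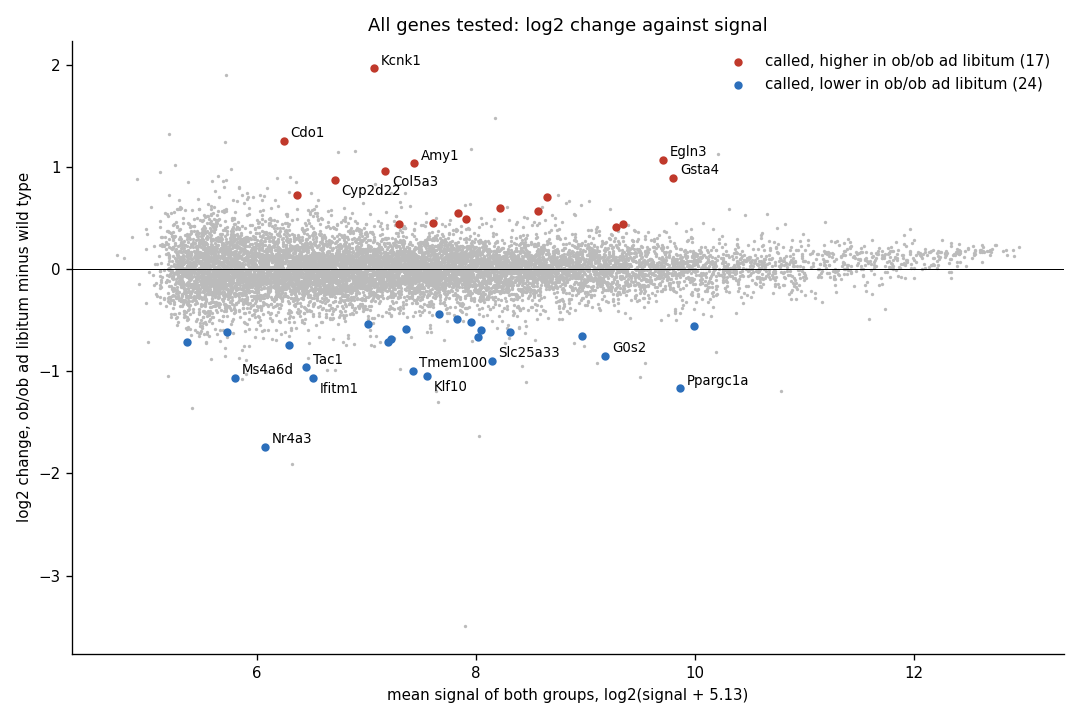
Log2 change (ob/ob ad libitum minus wild type, vertical axis) against the mean signal of both groups (log2(signal + 5.13), horizontal axis) for 10916 genes. The 17 called genes that are higher in ob/ob hearts are red, the 24 that are lower are blue, genes not called are grey, and called genes beyond 0.8 in either direction are named. The cloud is centred near 0 and widens at low signal, and the lowest grey point at -3.50 is the atrial gene Myl7.

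An adjusted p under 0.10 was reached by 144 genes (1.32%), 69 higher (0.632%) and 75 lower (0.687%) in ob/ob hearts. The yield of the test varied with signal. Among the 3639 genes with the lowest signal, 7 were called and 4.1% did not overlap between the groups, although 3.13% differed by more than 1.5-fold. Among the 3638 genes of middle signal, 20 were called, 7.5% did not overlap and 1.4% differed by more than 1.5-fold. Among the 3639 genes with the highest signal, 14 were called and 12.2% did not overlap, while 0.88% differed by more than 1.5-fold. The median standard error of a log2 change was 0.19, 0.13 and 0.10 in the low, middle and high range.

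The call with the smallest p among the genes that rose was Kcnk1, and among those that fell it was Ppargc1a. Kcnk1, on chromosome 8, encodes the 2-pore-domain potassium channel TWIK-1. Its signal was 196, 252, 213 and 173 in ob/ob hearts, against 56.5, 45.2, 58.6 and 38.9 in wild type hearts, a log2 change of 1.96 ± 0.13 (SE, n = 4 each, limma adjusted p = 3.58e-07). The groups lay far apart, and a separate Kcnk1 probe set gave 2.43. Ppargc1a, on chromosome 5, encodes PGC-1 alpha, the coactivator of mitochondrial and fatty acid oxidation genes. It had signals of 564, 538, 607 and 561 in ob/ob hearts and 1152, 1181, 1250 and 1569 in wild type hearts (-1.17 ± 0.11, limma adjusted p = 4.38e-05). The ob/ob values were tightly grouped, and the remaining 4 tested probe sets of Ppargc1a gave -1.01 to -1.27.

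Several genes that fell encode transcription factors. Nr4a3, an orphan nuclear receptor induced within minutes to hours of a stimulus, had signals of 23.7, 16.1, 32.8 and 29.2 in ob/ob hearts and 99.8, 75.2, 69.1 and 152 in wild type hearts (-1.74 ± 0.32, limma adjusted p = 0.023). Every ob/ob value was below every wild type value, and wild type replicate 4 was highest. Klf10, a TGF-beta-inducible zinc finger factor, had 111, 86.9, 146 and 129 in ob/ob hearts and 294, 271, 221 and 203 in wild type hearts (-1.05 ± 0.17, limma adjusted p = 0.0109). Ahr, the ligand-activated aryl hydrocarbon receptor, fell by 0.53, with 88.6 to 119 in ob/ob hearts and 144 to 152 in wild type hearts, but its other probe set gave 0.05. Nfkbiz, a nuclear regulator of NF-kappa B target genes, fell by 0.72 from low levels, with 23.5 to 28.3 in ob/ob hearts and 32 to 51.8 in wild type hearts. Ell2, a factor of transcript elongation, fell by 0.62.

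Because Ppargc1a and Nr4a3 are both known as targets of cAMP signalling, the RefSeq windows from 250 bases before to 50 bases after their starts are shown (GRCm38.p6). The first is chr5:51567676-51567975 on the minus strand and the second chr4:48045055-48045354 on the plus strand. Capitals mark TGACG, the core of a cAMP response element, or its complement CGTCA, found on either strand. The Ppargc1a window holds 1 match and the Nr4a3 window 4.
Ppargc1a: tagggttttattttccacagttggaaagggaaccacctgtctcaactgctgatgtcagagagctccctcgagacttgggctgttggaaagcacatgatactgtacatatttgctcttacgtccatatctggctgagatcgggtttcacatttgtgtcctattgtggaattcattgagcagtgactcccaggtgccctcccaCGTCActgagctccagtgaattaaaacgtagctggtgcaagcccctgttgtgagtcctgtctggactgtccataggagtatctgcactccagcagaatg
Nr4a3: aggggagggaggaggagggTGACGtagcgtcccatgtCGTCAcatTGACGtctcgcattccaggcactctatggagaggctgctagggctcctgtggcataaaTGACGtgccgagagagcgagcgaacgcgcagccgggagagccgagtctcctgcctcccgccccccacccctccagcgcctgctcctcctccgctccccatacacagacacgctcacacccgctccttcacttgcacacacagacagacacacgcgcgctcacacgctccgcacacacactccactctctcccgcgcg
These letters were found in 13 of the 32 called genes with a promoter entry (40.6%), 8 of 19 that fell and 5 of 13 that rose. Among all tested genes the share was 35.5% (3133 of 8826), and among all 32851 promoter windows it was 20.8%, so the share in called genes lay near that of the genes tested. The E-box letters CACGTG occurred in 4 of the 32 called genes (12.5%), against 11.9% of all tested genes with an entry and 7.15% of all windows. Of 30 tested genes of cAMP, adrenergic and calcium signalling to transcription, 18 were positive (median 0.04). Of the 30, 1 was called higher and 0 lower, against 0.156% and 0.22% of all genes. An unadjusted p under 0.05 was reached by 2 with higher and 0 with lower values, against 5.74% and 5.78%. Of 26 tested immediate early and NR4A genes, 14 were positive. Nr4a1, a relative of Nr4a3, had a value of 0.63 with overlapping groups (limma adjusted p = 0.524).

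**Figure D3:**
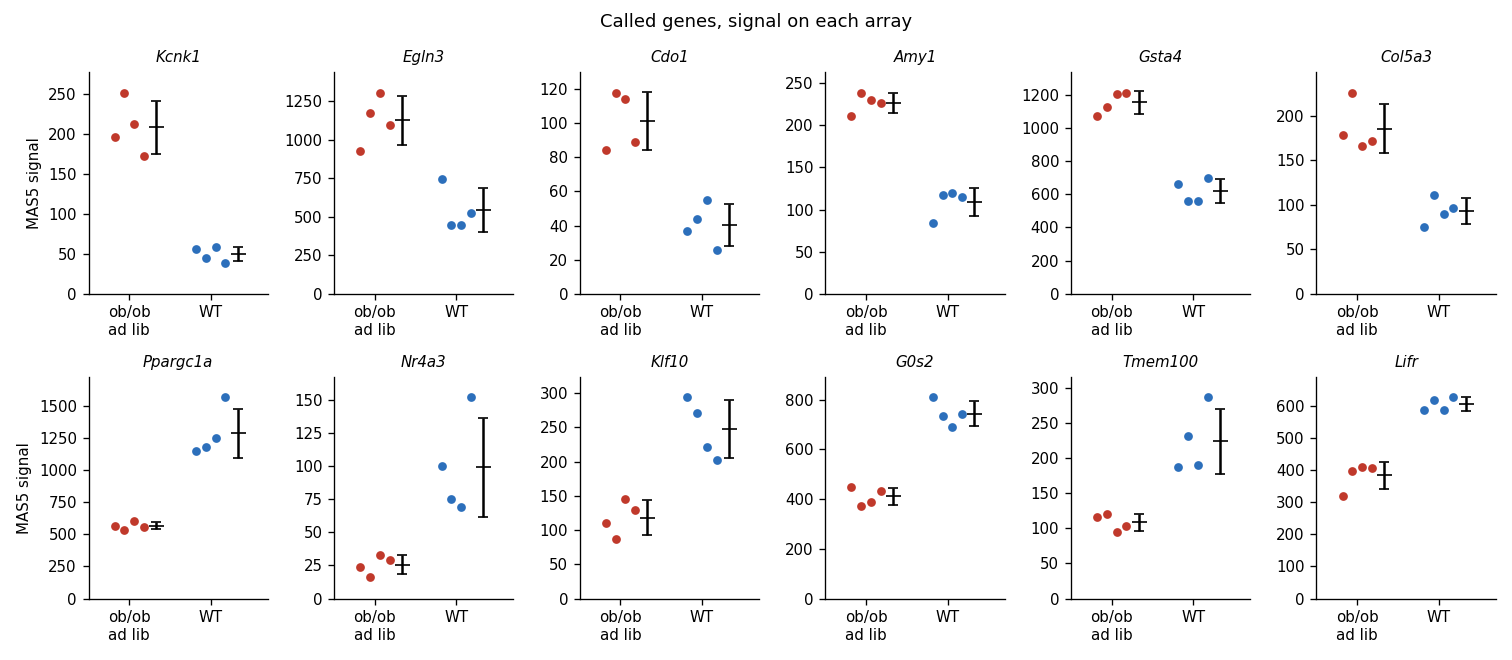
MAS5 signal on each array (points, linear axis from 0) of 12 called genes, ob/ob ad libitum in red on the left and wild type in blue on the right, with the mean and SD of each group (black, n = 4). The upper row holds genes that rose and the lower row genes that fell in ob/ob hearts, and the groups do not overlap in any of the 12 panels.

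Other genes that fell encode receptors and signalling proteins at the cell surface. Lifr, the receptor chain for leukaemia inhibitory factor, which like the leptin receptor signals through STAT3, had 321, 398, 412 and 408 in ob/ob hearts and 589, 621, 587 and 628 in wild type hearts (-0.66 ± 0.12, limma adjusted p = 0.023). The groups did not overlap, and a dimmer Lifr probe set gave -0.15. Igf1r, the receptor of insulin-like growth factor 1, had 193, 224, 197 and 181 in ob/ob hearts and 262, 326, 311 and 254 in wild type hearts (-0.52 ± 0.10, limma adjusted p = 0.0295). Here too the values were separate, while the 4 other Igf1r probe sets gave -0.41 to 0.06. Lpar6, a receptor for lysophosphatidic acid, fell by 0.60 with very even ob/ob values of 199 to 209, against 292 to 339 in wild type hearts. Tmem100, an endothelial membrane protein downstream of BMP signalling, had 117, 121, 94.5 and 103 in ob/ob hearts and 188, 232, 190 and 287 in wild type hearts (-0.99 ± 0.13, limma adjusted p = 0.00163). Tac1, the precursor of the neuropeptide substance P, fell by 0.96, with 44.3 to 64.9 in ob/ob hearts and 84.7 to 123 in wild type hearts.

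Membrane proteins and transporters followed. Tspan4 (-0.71), a tetraspanin, Igsf8 (-0.74), a protein that binds tetraspanins, Cldn12 (-0.44), a claudin, and St8sia4 (-0.59), which builds polysialic acid, fell. The other St8sia4 probe set went the opposite way, at 0.92. Abcg2 (-0.49), an efflux pump, and Slc19a2 (-0.69), a thiamine transporter, fell as well. Slc25a33, a mitochondrial carrier of pyrimidine nucleotides, had 215, 174, 186 and 196 in ob/ob hearts and 325, 345, 371 and 412 in wild type hearts (-0.89 ± 0.18, limma adjusted p = 0.034). The groups were far apart. Gda, which breaks down guanine, fell by 0.66. G0s2, an inhibitor of the main triacylglycerol lipase, had 449, 372, 390 and 431 in ob/ob hearts and 809, 732, 688 and 740 in wild type hearts (-0.85 ± 0.13, limma adjusted p = 0.00874).

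Gsta4, Oplah, Cdo1 and Cyp2d22 rose. Gsta4, a glutathione transferase for aldehydes from lipid peroxidation, had 1071, 1125, 1207 and 1214 in ob/ob hearts and 660, 562, 558 and 701 in wild type hearts (0.90 ± 0.14, limma adjusted p = 0.0109). The groups did not overlap. Oplah, which recycles 5-oxoproline to glutamate in the glutathione cycle, had 464, 465, 552 and 489 in ob/ob hearts and 255, 264, 318 and 373 in wild type hearts (0.71 ± 0.14, limma adjusted p = 0.0295). Cdo1, which oxidises cysteine on the way to taurine, had 84.4, 118, 114 and 88.7 in ob/ob hearts and 36.9, 44.0, 54.8 and 25.6 in wild type hearts (1.26 ± 0.24, limma adjusted p = 0.0295). In both genes all ob/ob arrays were above all wild type arrays. Of 17 tested genes of serine, glycine, cysteine and taurine metabolism, only Cdo1 had an unadjusted p under 0.05. Among all genes 11.5% had such a p in either direction, and 5.74% with ob/ob higher. Cyp2d22, a cytochrome P450, rose by 0.87. Of 34 tested genes of antioxidant defence, 1 was called higher, against 0.156% of all genes. At an unadjusted p under 0.05, 5 had higher and 1 had lower values, against 5.74% and 5.78% of all genes. They included Gstm2 (0.32, limma adjusted p = 0.081), a further glutathione transferase, Nqo1 (0.46, limma adjusted p = 0.0972), a quinone reductase, and Hmox1 (-0.76, limma adjusted p = 0.172), which degrades haem.

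Other genes that rose belong to several roles. Egln3, a hydroxylase that marks hypoxia-inducible factor for destruction, had 929, 1172, 1307 and 1094 in ob/ob hearts and 747, 446, 449 and 527 in wild type hearts (1.07 ± 0.21, limma adjusted p = 0.0304). Amy1, an amylase, had 211, 239, 230 and 227 in ob/ob hearts and 84.3, 117, 120 and 115 in wild type hearts (1.04 ± 0.21, limma adjusted p = 0.0432). Col5a3, a chain of type V collagen, had 178, 226, 166 and 172 in ob/ob hearts and 75.5, 111, 89.5 and 96.2 in wild type hearts (0.96 ± 0.14, limma adjusted p = 0.00793). None of these 3 genes overlapped between the groups. Ak4 (0.60), a mitochondrial adenylate kinase, Adra1b (0.73), the alpha-1B adrenergic receptor, Pla2g5 (0.45), a secreted phospholipase, and Magi3 (0.55), a junction scaffold, rose. So did Entpd5 (0.44), a nucleoside diphosphatase of the endoplasmic reticulum, Eif2b1 (0.49), a subunit of the exchange factor for initiation factor 2, Lzic (0.44) and the unnamed 2310022B05Rik (0.41).

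Of the 41 called genes, 40 did not overlap between the groups. The exception was Ifitm1, an interferon-induced membrane protein, with 37.9, 90.2, 49.2 and 44.6 in ob/ob hearts and 141, 119, 83.4 and 126 in wild type hearts (-1.06 ± 0.21, limma adjusted p = 0.034). Its ob/ob replicate 2 lay above wild type replicate 3. Another tested probe set was present for 19 called genes, and all such sets had the same sign in 13 of them. The 6 with an opposite set were St8sia4, Ahr, Nr1d2, Igf1r, Entpd5 and Lzic. Kcnk1, Ppargc1a, Tmem100, Col5a3 and G0s2 were called in all 8 fits that each left out 1 array, while Abcg2, Entpd5, Amy1, Cacnb2, Eif2b1, Per3 and Igsf8 were called in none of these. Gsta4, Klf10 and Cyp2d22 were called in 7 of the 8 fits, Lpar6, St8sia4 and Tspan4 in 6, and the rest in 1 to 4. With the mean log2 signal of the atrial genes Myl7, Myl4 and Sln as a covariate 19 genes were called, 5 higher and 14 lower in ob/ob hearts.

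Among ion channel genes the differences went beyond Kcnk1. Of 18 tested potassium channel genes, 1 was called, and 6 had higher and 1 had lower values at an unadjusted p under 0.05, against 5.74% and 5.78% of all genes. The list's median log2 change was 0.15, against 0.00 in all genes tested. Kcnk3, the 2-pore channel TASK-1, had 831, 947, 1016 and 1021 in ob/ob hearts and 674, 783, 756 and 748 in wild type hearts (0.36 ± 0.09, limma adjusted p = 0.081). Kcna5, the channel of an ultrarapid repolarising current, had 405, 408, 421 and 371 in ob/ob hearts and 280, 283, 338 and 230 in wild type hearts (0.51 ± 0.12, limma adjusted p = 0.0815). Neither gene overlapped between the groups, though neither passed the test. Kcnd2 (-0.31, limma adjusted p = 0.183) and Kcnd3 (0.42, limma adjusted p = 0.235), which encode the pores of the transient outward current, had opposite signs. However, the other tested Kcnd2 probe sets gave -0.21 and 0.34.

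Of 15 tested genes of calcium and sodium channels and excitation, 1 was called (Cacnb2), against 0.156% of all genes called higher. An unadjusted p under 0.05 was reached by 2 with higher and 0 with lower values, against 5.74% and 5.78% of all genes. The list median was 0.05. Cacnb2, an auxiliary subunit of the L-type calcium channel, had 435, 429, 434 and 489 in ob/ob hearts and 294, 268, 306 and 335 in wild type hearts (0.57 ± 0.12, limma adjusted p = 0.0495). Its groups were separate, and its other probe set gave 0.64. Gja1, the gap junction protein connexin 43, had 2811 to 3098 in ob/ob hearts and 2366 to 2512 in wild type hearts (0.29 ± 0.08, limma adjusted p = 0.109).

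Clock genes are paced by the activators of which Arntl (BMAL1) is the core, which drive repressors such as the Per and Nr1d genes and outputs such as Dbp. With 1 time of day sampled, a shift in phase and a change in level cannot be told apart. Of 18 tested clock genes, 2 fell, against 0.22% of all genes. At an unadjusted p under 0.05, 2 had higher and 5 had lower values, against 5.74% and 5.78% of all genes. Nr1d2, a repressor of the loop, had 746, 866, 864 and 790 in ob/ob hearts and 1026, 1291, 1299 and 1205 in wild type hearts (-0.56 ± 0.10, limma adjusted p = 0.0245). Per3, a period gene, had 40.6, 40.4, 39.2 and 26.8 in ob/ob hearts and 51.7, 54.4, 67.3 and 62.1 in wild type hearts (-0.62 ± 0.13, limma adjusted p = 0.0495). Neither gene overlapped, but a second Nr1d2 probe set gave 0.01.

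Several clock genes missed the threshold narrowly. Dbp had 117, 131, 115 and 88.7 in ob/ob hearts and 207, 338, 365 and 186 in wild type hearts (-1.20 ± 0.27, limma adjusted p = 0.057). Arntl had 202, 192, 173 and 187 in ob/ob hearts and 154, 108, 112 and 103 in wild type hearts (0.65 ± 0.16, limma adjusted p = 0.081). Per2 had 36.5 to 56.2 in ob/ob hearts and 61.3 to 107 in wild type hearts (-0.67 ± 0.16, limma adjusted p = 0.0815). In these 3 genes the groups did not overlap, with Arntl higher and Dbp and Per2 lower in ob/ob hearts. Tef, an output factor related to Dbp, had a value of -0.34 (limma adjusted p = 0.194), and Per1 had 0.61 (limma adjusted p = 0.23) with overlapping groups.

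**Figure D4:**
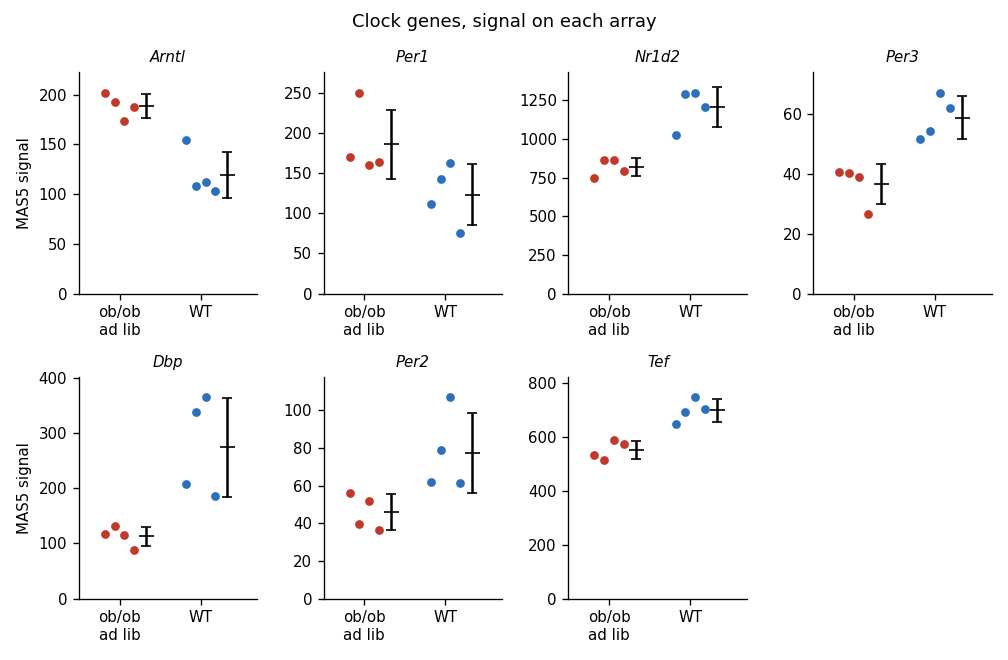
MAS5 signal on each array (points, linear axis from 0) of 7 clock genes, ob/ob ad libitum in red on the left and wild type in blue on the right, with the mean and SD of each group (black, n = 4). Arntl lies higher in ob/ob hearts and Nr1d2, Per3, Dbp, Per2 and Tef lie lower without overlap, while the groups of Per1 overlap.

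Among genes of leptin and related cytokine signalling Lifr was the single call. Of 15 tested genes, 0 had higher and 4 had lower values at an unadjusted p under 0.05, against 5.74% and 5.78% of all genes. The list median was -0.13 (-0.04 with the mean over probe sets). Socs3, the feedback inhibitor that leptin and related cytokines induce, had 87.0, 99.7, 109 and 47.4 in ob/ob hearts and 167, 121, 116 and 161 in wild type hearts (-0.73 ± 0.22, limma adjusted p = 0.165). The Socs3 groups were close but did not overlap. Socs2 had 283 to 319 in ob/ob hearts and 328 to 442 in wild type hearts (-0.40 ± 0.14, limma adjusted p = 0.259). Lepr, the leptin receptor, was too dim to be tested, with means of 30.9 ± 8.67 in ob/ob hearts and 24.9 ± 14.4 in wild type hearts (SD, n = 4 each).

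Genes of insulin and IGF signalling went both ways. Of 25 tested, 1 fell (Igf1r), against 0.22% of all genes, and the median was 0.00 as in all genes. At an unadjusted p under 0.05, 6 had higher and 4 had lower values, against 5.74% and 5.78% of all genes. Foxo3, a transcription factor held back by insulin, had 318 to 376 in ob/ob hearts and 378 to 607 in wild type hearts (-0.49 ± 0.15, limma adjusted p = 0.166). Igf2, a growth factor, had 172 to 234 in ob/ob hearts and 71.1 to 163 in wild type hearts (0.75 ± 0.23, limma adjusted p = 0.167), but its other tested probe set gave -0.10. Igfbp5, an IGF binding protein, had 418 to 549 in ob/ob hearts and 230 to 385 in wild type hearts (0.60 ± 0.19, limma adjusted p = 0.189). None of these 3 genes overlapped between the groups.

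Among 25 tested genes of lipid droplets, lipolysis and triacylglycerol synthesis, 1 was called (G0s2, given above), against 0.22% of all genes called lower. The genes of fatty acid and glucose handling that follow did not pass the test. Cd36 (0.18), the fatty acid translocase, Lpl (0.18), the lipase of circulating lipoproteins, Pnpla2 (0.00), the main triacylglycerol lipase, and Plin2 (-0.04), a lipid droplet coat protein, did not pass the test. Nor did Slc2a4 (0.06), the insulin-regulated glucose transporter, or Pdk4 (-0.39), which holds back pyruvate oxidation. Of 18 tested PPAR-alpha responsive genes, 0 were called, 2 had higher and 3 had lower values at an unadjusted p under 0.05 (5.74% and 5.78% of all genes), and the median was 0.02. Angptl4, which is secreted and blocks lipoprotein lipase, had 112, 81.1, 126 and 112 in ob/ob hearts and 451, 264, 208 and 214 in wild type hearts (-1.30 ± 0.30, limma adjusted p = 0.0712). Ucp3, a mitochondrial carrier, had 196, 158, 215 and 168 in ob/ob hearts and 367, 295, 276 and 278 in wild type hearts (-0.71 ± 0.22, limma adjusted p = 0.192). Both were separate between the groups. Slc27a1, a fatty acid transport protein, had 353 to 468 in ob/ob hearts and 260 to 317 in wild type hearts (0.41 ± 0.10, limma adjusted p = 0.0955). Ppara itself had 346 to 431 in ob/ob hearts and 475 to 546 in wild type hearts (-0.43 ± 0.16, limma adjusted p = 0.302).

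Of 23 tested genes of glucose uptake, glycolysis and glycogen, 0 were called, and 6 had higher and 0 had lower values at an unadjusted p under 0.05, against 5.74% and 5.78% of all genes. Ldha, which makes lactate, had 4105 to 4695 in ob/ob hearts and 3249 to 3625 in wild type hearts (0.34 ± 0.09, limma adjusted p = 0.112). Bdh1, which oxidises the ketone body 3-hydroxybutyrate, had 1755 to 2154 in ob/ob hearts and 1244 to 1354 in wild type hearts (0.54 ± 0.13, limma adjusted p = 0.0712). Of 23 hypoxia response genes, 1 rose (Egln3), against 0.156% of all genes called higher. At an unadjusted p under 0.05, 5 had higher and 1 had lower values, against 5.74% and 5.78% of all genes. Ddit4, which restrains mTORC1 under stress, had 1994, 1829, 1151 and 1514 in ob/ob hearts and 752, 690, 921 and 584 in wild type hearts (1.12 ± 0.27, limma adjusted p = 0.081). Vegfa, a growth factor for vessels, had 670 to 787 in ob/ob hearts and 419 to 534 in wild type hearts (0.58 ± 0.16, limma adjusted p = 0.124). Ldha, Bdh1, Ddit4 and Vegfa did not overlap between the groups.

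Small differences of 1 sign ran through many abundant cardiac genes and depended on the scaling of the arrays. All 53 tested subunits of oxidative phosphorylation were positive (median log2 change 0.14), and 21 did not overlap between the groups, against 4.17% of all genes with ob/ob higher. After quantile normalization 35 of the 53 were positive, the median was 0.02 and 2 did not overlap. Uqcr10, a complex III subunit, had 2794 to 3144 in ob/ob hearts and 2361 to 2643 in wild type hearts (0.22 ± 0.10, limma adjusted p = 0.396). However, its other tested probe sets gave -0.08 and -0.20. The 13 ventricular cardiomyocyte markers were all positive with a median of 0.18, and 8 were positive with a median of 0.01 after quantile normalization. Of 27 sarcomere and load genes, 21 were positive (median 0.14), against 15 after quantile normalization (median 0.00). Of 26 cytosolic ribosomal protein genes, 6 were positive (median -0.07), and 0 were positive after quantile normalization (median -0.13).

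Genes that respond to cardiac load varied within the groups and none was called. Acta1, skeletal alpha-actin, had 1698, 395, 1128 and 1386 in ob/ob hearts and 3071, 1927, 2012 and 2456 in wild type hearts (-1.20 ± 0.39, limma adjusted p = 0.203). The groups did not overlap, and ob/ob replicate 2 was far below the rest. Ankrd1, a load-responsive protein of the sarcomere and nucleus, had 1849 to 3143 in ob/ob hearts and 3068 to 3773 in wild type hearts (-0.49 ± 0.16, limma adjusted p = 0.228). Nppa, atrial natriuretic peptide, had 467 to 1214 in ob/ob hearts and 963 to 1717 in wild type hearts (-0.81 ± 0.48, limma adjusted p = 0.545). With the mean log2 signal of the atrial genes Myl7, Myl4 and Sln as a covariate, its value was -0.22 (limma adjusted p = 0.896). Nppb (0.14), Myh7 (-0.51) and Myh6 (0.14), which encode brain natriuretic peptide and the slow and fast myosin heavy chains, overlapped between the groups.

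**Figure D5:**
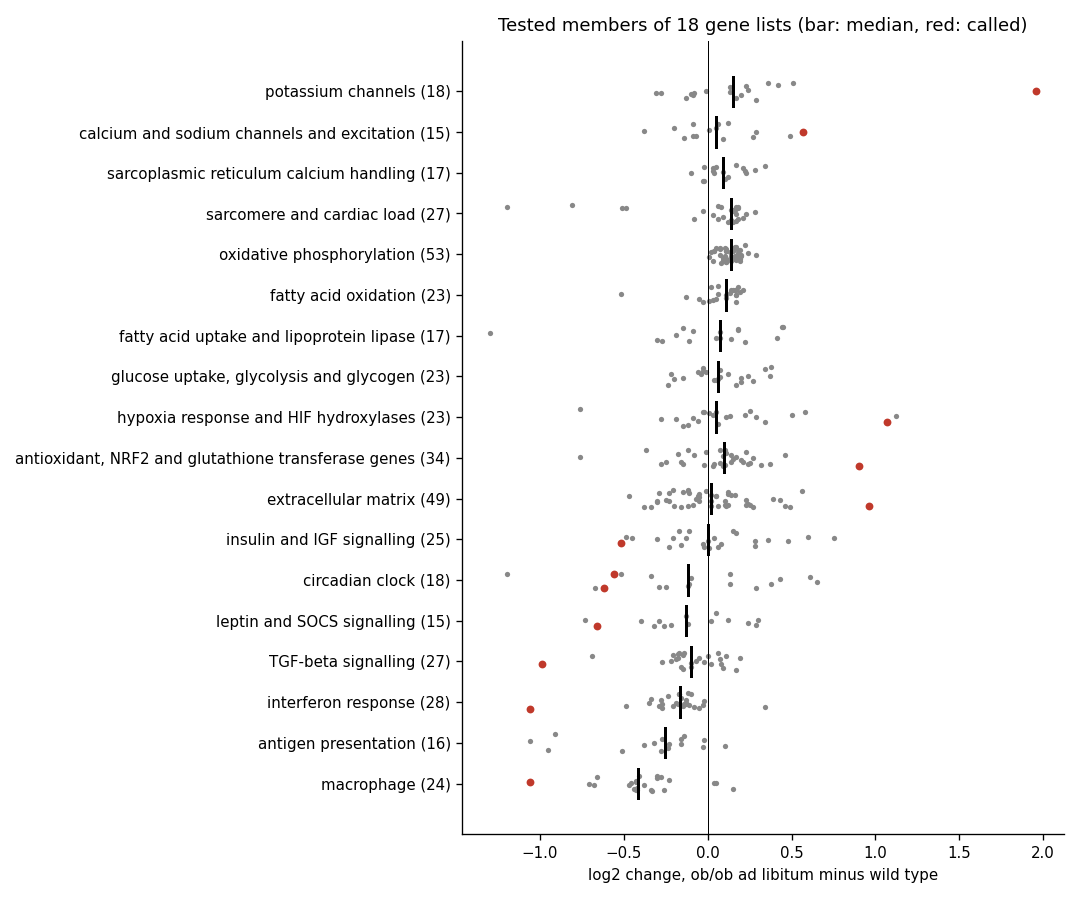
Log2 change (ob/ob ad libitum minus wild type, horizontal axis) of each tested member of 18 gene lists, with the number tested in parentheses, the median as a black bar and called genes in red. The potassium channel, sarcomere and oxidative phosphorylation lists have medians of 0.14 to 0.15, and the macrophage list has the lowest median at -0.41.

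Genes of macrophages, antigen presentation and interferon had mostly negative values, and these were smaller without replicate 4 of both groups. Of 24 tested macrophage markers, 1 fell (0.22% of all genes did), 3 were positive, and the median was -0.41. At an unadjusted p under 0.05, 13 had lower and 0 higher values, against 5.78% and 5.74% of all genes. Without both replicates 4, 0 were called, 5 had lower values at that p and the median was -0.26, and with the atrial covariate these were 0, 6 and -0.31. Ms4a6d, a membrane protein of macrophages, had 31.6, 34.4, 36.9 and 22.3 in ob/ob hearts and 77.7, 77.4, 63.5 and 63.1 in wild type hearts (-1.06 ± 0.20, limma adjusted p = 0.0245). Its groups were separate. Cd14, a co-receptor for lipopolysaccharide, had 97.8 to 122 in ob/ob hearts and 146 to 221 in wild type hearts (-0.68 ± 0.17, limma adjusted p = 0.0819). Cd163, a haemoglobin scavenger receptor of resident macrophages, overlapped, with 56.1 to 94.7 in ob/ob hearts and 89.9 to 173 in wild type hearts (-0.71 ± 0.23, limma adjusted p = 0.218).

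H2-Aa, a class II antigen presenting chain, had 648, 325, 417 and 467 in ob/ob hearts and 734, 1008, 783 and 1354 in wild type hearts (-1.06 ± 0.24, limma adjusted p = 0.0706). The groups did not overlap, and wild type replicate 4, which also had the highest macrophage sum, was highest. Of 16 tested genes of antigen presentation, 1 was positive with a median of -0.26, and 3 were positive with a median of -0.17 without both replicates 4. Of 28 interferon responsive genes, 1 was positive, and 7 were without both replicates 4. The part of a lower macrophage signal in these values was not tested. Of 7 tested platelet genes, 0 were positive and 0 were called. Ppbp, a platelet chemokine, had 28.2, 31.2, 22.7 and 26.5 in ob/ob hearts and 98.7, 185, 68.9 and 140 in wild type hearts (-1.91 ± 0.51, limma adjusted p = 0.109). Its values did not overlap, and it was called in the fit on only the 8 arrays and with array weights.

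Of 49 tested matrix genes, 1 rose (Col5a3), against 0.156% of all genes, and the median was 0.02. At an unadjusted p under 0.05, 6 had higher and 0 had lower values, against 5.74% and 5.78% of all genes. Eln, elastin, had 131 to 216 in ob/ob hearts and 99.6 to 137 in wild type hearts (0.56 ± 0.15, limma adjusted p = 0.115), and Fbln2, a matrix glycoprotein, had a value of 0.43 (limma adjusted p = 0.111). Pi16, a marker of fibroblasts in vessel walls, had 156 to 255 in ob/ob hearts and 286 to 672 in wild type hearts (-1.11 ± 0.27, limma adjusted p = 0.081). Pi16 did not overlap, and wild type replicate 4 again had the highest value.

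Of 9 tested genes of retinoic acid synthesis and response, 0 were called. At an unadjusted p under 0.05, 1 had a higher and 1 a lower value, against 5.74% and 5.78% of all genes. Cyp26b1, which degrades retinoic acid, lay at the threshold, with 53.7, 31.4, 101 and 123 in ob/ob hearts and 13.2, 7.52, 9.09 and 40.8 in wild type hearts (1.90 ± 0.40, limma adjusted p = 0.0503). Its groups overlapped through ob/ob replicate 2 and wild type replicate 4. Aldh1a1 (-0.57, limma adjusted p = 0.109), which makes retinoic acid from retinal, and Adh1 (-0.69, limma adjusted p = 0.0706), which oxidises retinol and other alcohols, had lower values in ob/ob hearts without overlap.

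Other genes close to the threshold were spread over many roles. Otud1, a deubiquitinase, had 551, 286, 300 and 239 in ob/ob hearts and 116, 137, 178 and 144 in wild type hearts (1.17 ± 0.25, limma adjusted p = 0.0554). Klhl40, which stabilises thin filament proteins in muscle, had 79.4 to 129 in ob/ob hearts and 55.3 to 71.8 in wild type hearts (0.74 ± 0.16, limma adjusted p = 0.0554). Fgl2, a prothrombinase of immune cells, had 81.0 to 140 in ob/ob hearts and 175 to 242 in wild type hearts (-0.98 ± 0.22, limma adjusted p = 0.057). None of these 3 genes overlapped between the groups. The cardiac transcription factor Hand2 (0.53, limma adjusted p = 0.081) and the GATA4 cofactor Zfpm2 (0.44, limma adjusted p = 0.0589) had higher values without overlap, and their further probe sets gave 0.39 to 0.50.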

How the data were processed

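RNA from 18 mouse hearts was measured on Affymetrix arrays. The authors computed a linear signal intensity for each probe set with MAS5, per the submitters' processing notes, and deposited these values. Its version is not given in the sources used here. With 2% trimmed from either end, every array of the comparison had a mean of 100.001, so a change in total RNA cannot be read from these values. The table holds no detection calls.

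Of 45101 probe sets, 64 controls, 932 sets with several symbols and 9160 that the platform annotation did not list were left out. The other 34945 had 1 symbol, and 34741 had an Entrez identifier found in RefSeq (GRCm38.p6), through which 0 symbols changed. The set with the highest mean stood for each of 18193 genes. The 20th percentile of all signals, 5.13, was added before taking log2, and the genes under the 40th percentile of mean signal were left out. This scale understates changes of dim genes.

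One limma model (R 4.3.3, limma 3.58.1) held all 18 arrays with a mean for each of the 4 groups and a common variance. Tests were two-sided, and all adjusted p-values come from this fit over 10916 genes with Benjamini-Hochberg adjustment. Errors are standard errors unless given as SD. The number of arrays limits the precision. The procedure was tested on simulated data.

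Same-numbered samples had deviations that correlated at 0.091, 0.094, -0.009 and 0.444, against -0.341 to 0.296 for samples of different number. Replicate 4 thus lay above every pair of different number, and 2 of the 4 ob/ob samples correlated best with their own number. The numbers were not taken to pair the samples, because the other same-numbered values lay within that range. Gene lists are described by counts and medians, with no list test. The text names the called genes, for a described list its members of lowest p, 4 at most, up to 3 bright markers of a cell type and a fixed set of fuel, load and leptin genes. Per1, Per2, Tef, Kcnd3, Slc27a1, Ppara, Bdh1, Cd14, Cd163, Ppbp, Pi16, Myl7, Adh1, Otud1, Klhl40, Fgl2, Hand2, Zfpm2, Cyp2b10 and Upp1 were chosen after their values were seen. The gene lists and members were chosen with earlier results of these data known.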

Additional observations from a re-analysis of the deposited data

Results flagged for a closer look

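For 210 sets of 4 arrays, a gene in a group each, the highest or lowest array was set against the other 3 by Dixon's ratio at its 95% critical value. An array stood apart in 16 of these sets, and chance alone flags about 1 in 20.

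In ob/ob hearts, replicate 4 stood apart for Entpd5 (767), Cacnb2 (489) and Per3 (26.8, lowest), replicate 1 for Lifr (321, lowest), Insig1 (102) and Myl7 (438), replicate 2 for Per1 (250) and Nppb (1537, lowest), and replicate 3 for Ldha (4695). In wild type hearts, replicate 4 stood apart for St8sia4 (216), Slc19a2 (232) and Pnpla2 (1471), replicate 1 for Amy1 (84.3, lowest) and Ankrd1 (3068, lowest), replicate 2 for Entpd5 (603), and replicate 3 for Nfkbiz (32, lowest).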

How the results depend on the processing

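The number of genes called, 41 in the analysis as reported, was 42 with a pseudocount of 1, 68 with a pseudocount of 32, 13 with no filter on low signals, 92 with a filter at the 60th percentile, 10 on only the 8 arrays, 82 with a trended and robust prior, 130 with array weights and 19 with the atrial covariate. Quantile normalization gave 57 (31 higher, 26 lower in ob/ob hearts), the mean over probe sets 35 (19 higher, 16 lower), and the atrial covariate 5 higher and 14 lower, against 17 and 24 as reported. Leaving out 1 array gave 6 to 50. Chosen after seeing the data, the filter at the 40th percentile of all probe sets gave 40 of 13359 genes, and leaving out replicate 4 of both groups gave 8 genes called and 1928 without overlap. The replicate numbers were not taken to pair the samples, although by the check used replicate 4 lay above every pair of different number. With the replicate number as a block 31 genes were called, 24 of them among the 41, and on only the 8 arrays, chosen after seeing the data, the replicate block gave 0 by limma, with 1511 at an unadjusted p under 0.05 and a lowest adjusted p of 0.0538. Genes without overlap numbered 718 to 1080 under the 4 other settings tried, against 869 (7.96%). The 718 were 9.87% of 7277 genes with the filter at the 60th percentile. The 1080 were 5.94% of 18193 genes with no filter. The cause of these differences was not tested, except that fewer arrays or more tests leave a stricter threshold for calls by construction. For genes without overlap, fewer arrays make the criterion easier to meet by construction, and without replicate 4 of both groups the share was 17.66%.

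The mean over probe sets reversed St8sia4 (0.16), Lzic (-0.02), Foxo3 (0.03), Uqcr10 (-0.02), Myh6 (0.00) and Pnpla2 (-0.43). Quantile normalization reversed Myh6 (-0.03) and Pnpla2 (-0.02). Pnpla2, at 0.00, was also at -0.03 with the atrial covariate and between -0.03 and 0.03 without single arrays, and Plin2 lay between -0.11 and 0.04 without single arrays (0.03 without ob/ob replicate 2, 0.04 without wild type replicate 1). Of 676 list medians recomputed under alternatives, 631 moved by less than the SD between arrays and 45 by more.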

Other observations

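Some gene groups not described above held 1 or more genes with an unadjusted p under 0.05. Of 18 tested genes of sphingolipid metabolism, 0 were called. At an unadjusted p under 0.05, 0 had higher and 4 had lower values, against 5.74% and 5.78% of all genes. Asah1, the acid ceramidase, had 244 to 319 in ob/ob hearts and 316 to 420 in wild type hearts (-0.35, limma adjusted p = 0.194), and Sgpp1, a sphingosine phosphate phosphatase, had 192 to 228 in ob/ob hearts and 246 to 292 in wild type hearts (-0.37, limma adjusted p = 0.216). Of 19 glucocorticoid responsive genes, 0 were called, and 6 had higher and 2 had lower values at an unadjusted p under 0.05, against the same shares. The metallothionein Mt2 had 561, 476, 524 and 484 in ob/ob hearts and 1062, 1047, 885 and 887 in wild type hearts (-0.92, limma adjusted p = 0.223). Its SD was 39.1 and 97.6 in these groups and 496 in the leptin group, which entered the shared estimate of the spread. In the fit on only the 8 arrays Mt2 was called (limma adjusted p = 0.0188). Id2, a target of BMP signalling, had 43.8 to 60.8 in ob/ob hearts and 62.2 to 99.6 in wild type hearts (-0.69, limma adjusted p = 0.129). Insig1, which restrains sterol synthesis, had a value of -0.67 (limma adjusted p = 0.0972). The cell cycle inhibitors Cdkn1a (0.72, limma adjusted p = 0.124) and Cdkn1c (-0.60, limma adjusted p = 0.0829) had opposite signs, and neither overlapped between the groups. Cyp2b10, a cytochrome P450, had a value of 1.16 (limma adjusted p = 0.0811) and Upp1, which breaks down uridine, -1.05 (limma adjusted p = 0.057).

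Of 80 tested genes that neighbour Lep on chromosome 6, 40 on each side, 1 was called (Tac1), against 0.376% of all genes. An unadjusted p under 0.05 was reached by 7 (8.75%), and all 7 were lower in ob/ob hearts. Among all genes the share was 11.5% in either direction and 5.78% with ob/ob lower.

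With the lower filter, a setting chosen after seeing the data, 6 dim genes were called that were not tested otherwise. The histone chaperone Asf1b (1.43) and the calcium channel subunit Cacng6 (1.05) were higher in ob/ob hearts, and Aldh1a2 (-2.09), which makes retinoic acid, Clec1b (-1.95), a platelet receptor, Kcnt2 and Ccl11 were lower. Kcnt2, a sodium-activated potassium channel, had 21.8, 18.6, 21.8 and 16.6 in ob/ob hearts and 33.8, 40.6, 32.5 and 41.9 in wild type hearts (-0.77, limma adjusted p = 0.0445). Ccl11, the chemokine eotaxin, had 19.4, 19.6, 20.1 and 18.2 in ob/ob hearts and 41.8, 29.7, 40.4 and 35.0 in wild type hearts (-0.77, limma adjusted p = 0.0454). Neither overlapped between the groups.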
